A study of Mus musculus with 6 samples.

Results

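Transcripts of 10 mouse genes that make and move the phospholipids of mitochondrial membranes were compared between wild-type (WT) cells and cells lacking the mitochondrial protease YME1L. The genes are Prelid1, Prelid3a, Prelid3b, Triap1 and Stard7, which encode lipid carriers and a carrier partner, and Crls1, Pisd, Tamm41, Pgs1 and Ptpmt1, which encode enzymes. They were taken by name from a raw count table of 51499 assembled loci, and all 10 symbols were found there. RNA was sequenced from cultures of SV40-immortalized mouse embryonic fibroblasts (MEFs), 3 WT cultures carrying the floxed allele (Yme1l fl/fl) and 3 Yme1l-/- cultures. According to the study, primary cells of floxed embryos were immortalized with SV40 large T antigen, Cre recombinase was introduced into the cells, and single clones were grown and genotyped as WT or Yme1l-/-. The floxed background and the large T antigen are therefore common to both groups, while the cells of each genotype descend from single clones. Nothing in the labels says how the 3 cultures of a genotype relate to its clones, so the p-values measure the spread between cultures.

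Cardiolipin is the signature phospholipid of the mitochondrial inner membrane. Its precursor, phosphatidic acid, is carried from the outer membrane across the intermembrane space by PRELID1 in complex with TRIAP1. On the inner membrane TAMM41 converts phosphatidic acid to CDP-diacylglycerol, PGS1 makes phosphatidylglycerol phosphate from it, PTPMT1 removes the phosphate, and CRLS1 joins the products to cardiolipin. Phosphatidylserine is carried by PRELID3B, also with TRIAP1, to PISD, which decarboxylates it to phosphatidylethanolamine, and STARD7 carries phosphatidylcholine into mitochondria. YME1L degrades the PRELID1 protein when TRIAP1 does not hold it, and PARL, a rhomboid protease of the inner membrane, cleaves STARD7. The comparison measures the transcripts of these genes and says nothing of their proteins or of the lipids.

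The sequences before the start sites of 3 of the genes are shown because their transcripts went different ways: Crls1 was higher in Yme1l-/- cells, Triap1 was higher together with the gene that starts back to back with it, and Prelid3b was slightly lower. RefSeq promoter entries (build GRCm38.p6) matched 8 of the 10 genes. Each sequence is written 5′ to 3′ on the strand of its gene and ends at the base before the annotated start. The first is chr2:132846416-132846665 (plus strand, 250 bases, 61.6% GC), the second is the whole 46-base gap between Triap1 and Gatc at chr5:115341179-115341224 (plus strand, 78.3% GC), and the third is chr2:174473082-174473191 (minus strand, 110 bases, 70.0% GC). Capitals mark an E-box.
Crls1: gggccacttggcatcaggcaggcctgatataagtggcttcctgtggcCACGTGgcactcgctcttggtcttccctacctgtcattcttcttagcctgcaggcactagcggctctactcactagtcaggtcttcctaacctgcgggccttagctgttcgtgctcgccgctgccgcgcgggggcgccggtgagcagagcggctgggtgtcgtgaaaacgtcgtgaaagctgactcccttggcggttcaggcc
Triap1: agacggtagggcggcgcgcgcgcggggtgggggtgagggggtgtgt
Prelid3b: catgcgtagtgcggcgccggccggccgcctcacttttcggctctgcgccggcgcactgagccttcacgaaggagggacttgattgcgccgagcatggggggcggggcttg

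In these 3 stretches 6 motifs were searched on both strands. Factors of the ETS family were represented by the letters CCGGAAG, the cAMP response element by TGACGTCA, and the respiratory chain regulator NRF1 by GCATGCGC. The stress factor ATF4 was represented by its composite element TGATGNAA, where N is any base. The remaining motifs were the CCAAT box, which its name spells, and the palindromic E-box CACGTG. The E-box of Crls1, 198 to 203 bases before the start, was the only match. An E-box lies in 6.02% of the 250-base stretches of the same kind from 32851 RefSeq promoter entries, none of them from chromosome 18. The gap between Triap1 and Gatc held none of the 6 motifs, and neither did the stretch before Prelid3b. A CCAAT box lies in 7.74% of entries over 46 bases and in 20.2% over 110 bases. These matches describe letters in a window and were not tested for binding.

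The WT libraries held 33180867 to 34012520 counted fragments and the Yme1l-/- libraries 34624075 to 49351107. Libraries of 1 genotype differed from each other well beyond counting error (chi-square per degree of freedom of at least 8.45 over loci), so none is a copy of another. Yme1l1, the targeted gene, went from 189 ± 5.16 CPM (counts-per-million of the TMM-scaled library; mean ± SD, n = 3) in WT to 39.1 ± 1.34 in Yme1l-/- cells, a log2 fold change of -2.27 ± 0.05 (SE). Of 8 fibroblast markers 7 had enough counts for the test, 1 higher and 5 lower in Yme1l-/- cells, and their summed level was 6210 to 6423 CPM in WT and 4368 to 4590 in Yme1l-/- libraries. Thy1, a defining fibroblast surface marker, had 4 to 6 fragments in each WT library and was listed at 0 in each Yme1l-/- library. The 8 markers of immune, epithelial, endothelial, muscle and neural crest cells summed to 2.94 to 3.53 CPM in WT and 3.69 to 4.26 in Yme1l-/- libraries, with 3 of the 8 at 3 fragments or fewer throughout. These sums hold opposite changes in their 2 tested markers, the epithelial Epcam (1.29 ± 0.219 to 0.0848 ± 0.024 CPM, log2 fold change -3.83 ± 0.33) and the macrophage marker Cd68 (1.77 ± 0.0819 to 3.62 ± 0.245 CPM, 1.04 ± 0.14), both called by edgeR. Epcam had 2 to 5 fragments in the Yme1l-/- libraries and passed the filter only through WT, so its call and fold are no more than a description. Among the fibroblast markers Vim (-1.33 ± 0.05) and Col3a1 (-2.48 ± 0.65) changed most, the latter with 1 WT library of 9860 fragments beside 2858 and 2974 and with its call lost without any single Yme1l-/- library (edgeR adjusted p = 0.0855, 0.0896 and 0.0917). The log2 fold change of Col3a1 ranged from -2.78 to -1.63 over the alternatives. With the median of each chromosome removed, Col1a1, the higher fibroblast marker (0.43 ± 0.06), was at 0.073 (edgeR adjusted p = 0.312) and Pdgfrb at -0.13 (edgeR adjusted p = 0.179), neither called. The part that these marker shifts play in the results was not tested.

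The genotypes differed widely. Of 13867 loci with enough counts, 67.7% were called different by edgeR's quasi-likelihood test (Benjamini-Hochberg adjusted p under 0.05), 33.6% higher and 34.1% lower in Yme1l-/- cells, and in 71.9% the 3 libraries of each genotype did not overlap. Among the lipid genes 9 entered the test and Ptpmt1 did not. Prelid3a, Crls1, Tamm41, Triap1 and Pgs1 were called higher, Prelid1 and Prelid3b lower, and Stard7 and the Pisd locus were not called. The 7 calls in 9 genes (77.8%) stand close to the share over all loci. Libraries of the genotypes did not overlap for 8 of the 9 genes, in 6 with all Yme1l-/- libraries above WT and in 2 with all below. The same held for 71.9% of all tested loci. Changes in the group were small: the median log2 fold change was 0.25 against -0.00 over all loci, the median size regardless of sign was 0.27 against 0.38, and none of the 9 genes reached a log2 fold change of 1 in either direction, which 18.05% of loci did. The cultures agreed closely, with coefficients of variation of 2.26 to 11.7% in WT and 0.461 to 6.15% in Yme1l-/- cells over the 9 genes. In RNA from a whole culture, fewer expressing cells and less RNA per cell cannot be told apart.

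**Figure D1:**
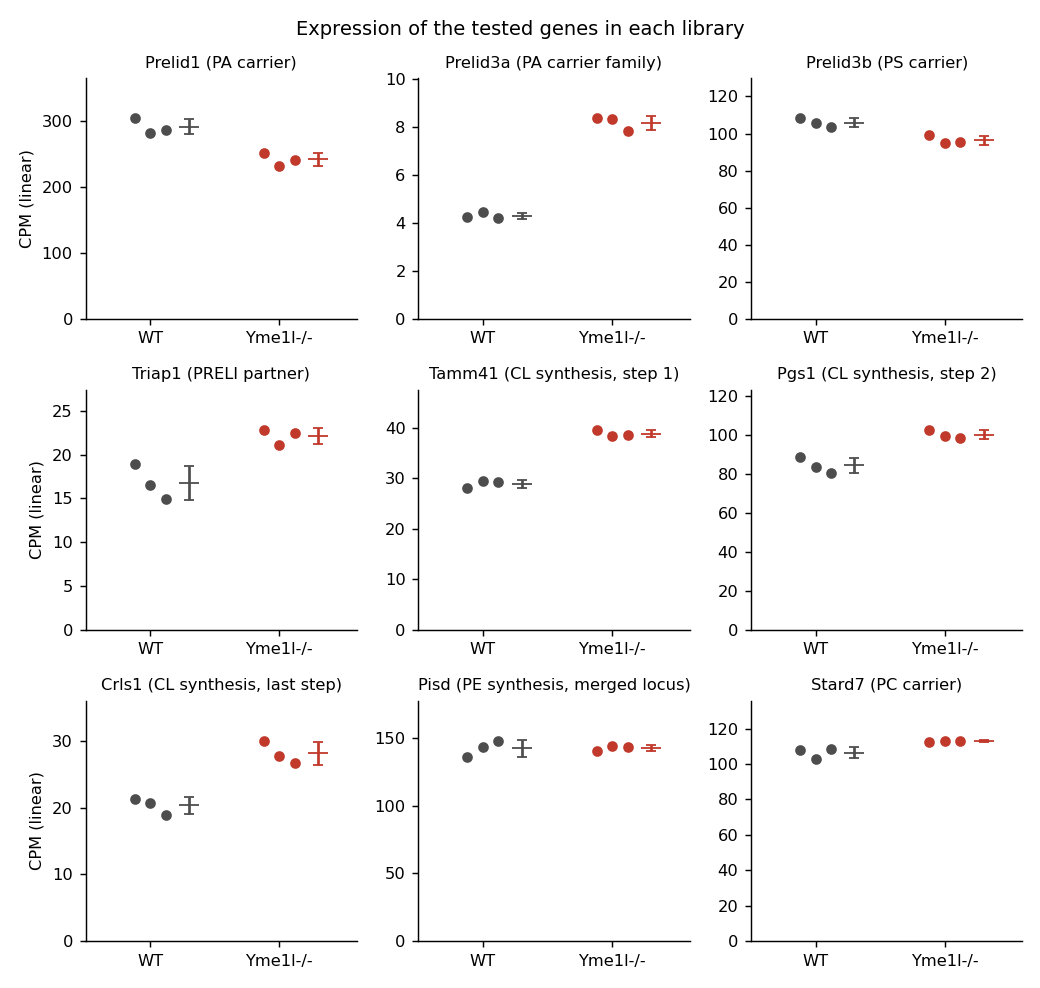
Level of each tested gene in each library, in counts-per-million of the TMM-scaled library (CPM, linear axes starting at 0), for WT (grey) and Yme1l-/- (red) cultures; points are the 3 cultures and bars are mean ± SD. The points of the genotypes do not overlap in 8 panels and overlap for the Pisd locus; relative to its WT level the widest step is that of Prelid3a, from 4.28 to 8.17 CPM, and in CPM that of Prelid1, from 290.4 to 241.

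The carriers of phosphatidic acid and phosphatidylserine did not move as one. Prelid1, the main phosphatidic acid carrier, fell to 83.0% of its WT level, and Prelid3b, the phosphatidylserine carrier, fell to 91.1%. Prelid3a, a related carrier with far fewer transcripts, rose 1.90-fold, and Triap1, the partner of the PRELI-like proteins, rose 1.32-fold.

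Prelid1 (ENSMUSG00000021486, chromosome 13, 55320500 to 55325272, plus strand, GRCm38) stood at 303, 282 and 286 CPM in the WT cultures and at 252, 232 and 240 CPM in the Yme1l-/- cultures. Every Yme1l-/- culture was below every WT culture. Its log2 fold change was -0.27 ± 0.05 (95% interval -0.37 to -0.16, edgeR adjusted p = 0.000387). The median of chromosome 13 was 0.08, and 25.0% of the tested loci on it had a lower value than Prelid1. Rab24, a gene on the opposite strand whose annotated span overlaps that of Prelid1, had a log2 fold change of 0.22 ± 0.06 (edgeR adjusted p = 0.0088), and Mxd3, which overlaps its other end on the opposite strand, of 0.48 ± 0.10. Whether the counting used the strand is not stated, so fragments from the overlaps cannot be assigned; the overlapping genes were higher where Prelid1 was lower.

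Prelid3b (ENSMUSG00000016257, chromosome 2, 174465067 to 174473081, minus strand), whose upstream stretch is printed above, had 108, 106 and 103 CPM in WT and 99.2, 94.7 and 95.3 CPM in Yme1l-/- cultures. The genotypes did not overlap, though the gap between the lowest WT and the highest Yme1l-/- culture was narrow. The log2 fold change was -0.13 ± 0.04 (95% interval -0.23 to -0.04, edgeR adjusted p = 0.0191). This call was lost without WT replicate 1 (adjusted p = 0.0661), without Yme1l-/- replicate 2 (adjusted p = 0.0806), without Yme1l-/- replicate 3 (adjusted p = 0.0804) and with upper-quartile scaling (-0.074, adjusted p = 0.158), over a range of adjusted p from 0.00924 to 0.158 in all alternatives of the edgeR and DESeq2 fits. Its direction was the same in all 13 alternatives.

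Prelid3a (ENSMUSG00000024530, chromosome 18, 67464866 to 67479835, plus strand) had the largest log2 fold change of the 9 genes and the smallest counts. It was counted in 140, 145 and 137 fragments in WT and in 292, 420 and 399 fragments in Yme1l-/- libraries, which is 4.23, 4.43 and 4.20 CPM against 8.34, 8.33 and 7.83 CPM. The Yme1l-/- cultures lay together at a level nearly double that of WT. On the log2 scale the change was 0.93 ± 0.10 (95% interval 0.71 to 1.15, edgeR adjusted p = 7.12e-06). The median of chromosome 18 was -0.21, and 91.6% of its loci lay below Prelid3a.

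Triap1 (ENSMUSG00000029535, chromosome 5, 115341225 to 115343569, plus strand) stood at 18.9, 16.5 and 15.0 CPM in WT and at 22.9, 21.1 and 22.4 CPM in Yme1l-/- cultures. The WT cultures spread more than the Yme1l-/- cultures, and the genotypes did not overlap. The log2 fold change was 0.40 ± 0.08 (95% interval 0.21 to 0.58, edgeR adjusted p = 0.00145), with 77.8% of the loci of chromosome 5 below it and a chromosome median of 0.01. Gatc, a subunit gene of the mitochondrial glutamyl-tRNA amidotransferase that starts 46 bases away on the other strand, went from 27.6 ± 0.899 to 41.8 ± 3.34 CPM. Its log2 fold change was 0.60 ± 0.07 (edgeR adjusted p = 9.21e-06). Both genes flanking the GC-rich gap printed above were thus higher in Yme1l-/- cells, while Cox6a1, the next gene on the other side of Triap1, had a log2 fold change of 0.08 ± 0.07 and was not called (edgeR adjusted p = 0.323). Neighbouring genes were picked after their values were seen.

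Levels of different genes can be set side by side only per transcript length, for which the authors' table gives 1 combined FPKM value (fragments per kilobase, adjusted for library size) per genotype and no spread. On that scale the order in WT was Prelid1 (216), Prelid3b (82.9), the Pisd locus (39.3), Stard7 (36.4), Pgs1 (36.0), Tamm41 (30.7), Triap1 (18.0), Crls1 (12.8) and Prelid3a (2.09). In Yme1l-/- cells it was Prelid1 (182), Prelid3b (77.0), Pgs1 (42.4), Tamm41 (42.3), the Pisd locus (40.3), Stard7 (38.7), Triap1 (23.8), Crls1 (18.2) and Prelid3a (3.98). The carriers with PRELI-like domains headed and closed the list, and neighbours such as Pgs1 and Tamm41 cannot be ranked without replicate values. Of the summed FPKM of the 3 carriers, 301 in WT and 263 in Yme1l-/- cells, Prelid1 made up 71.8% and 69.2%, Prelid3b 27.5% and 29.3%, and Prelid3a 0.692% and 1.52%. Even after its rise Prelid3a was thus a minor carrier transcript, Prelid1 being listed at 45.6 times its FPKM in Yme1l-/- cells and 104 times in WT.

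The ratios of Triap1 to Prelid1 and to Prelid3b were higher in every Yme1l-/- library than in any WT library. Within a library, the log2 ratio of counts does not depend on how libraries are scaled. The differences in these ratios restate the fold changes of the single genes given above and are no separate result. For Triap1 to Prelid1 it was -4.00, -4.09 and -4.25 in WT and -3.46, -3.45 and -3.42 in Yme1l-/- libraries. The ratio was 1.59-fold higher in Yme1l-/- cells, a log2 difference of 0.67, and the genotypes did not overlap. For Triap1 to Prelid3b the difference was 0.54 and for Prelid3a to Prelid3b it was 1.06, again with every Yme1l-/- library above every WT library. Prelid3b to Prelid1 differed by 0.13, with no overlap either. The ratio of Triap1 to Prelid3a, which was not among the planned pairs and was not tested, went the other way, with 4.46, 3.73 and 3.57 Triap1 fragments for each Prelid3a fragment in WT and 2.74, 2.54 and 2.86 in Yme1l-/- libraries. In an exact permutation test of 3 libraries against 3, two-sided, each of the 4 planned pairs among these gave p = 0.1, the smallest value this design can reach, and 0.14 after Benjamini-Hochberg adjustment over the 7 pairs computed. On the authors' FPKM scale Prelid1 stood at 12.0 times Triap1 in WT and at 7.64 times in Yme1l-/- cells.

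**Figure D2:**
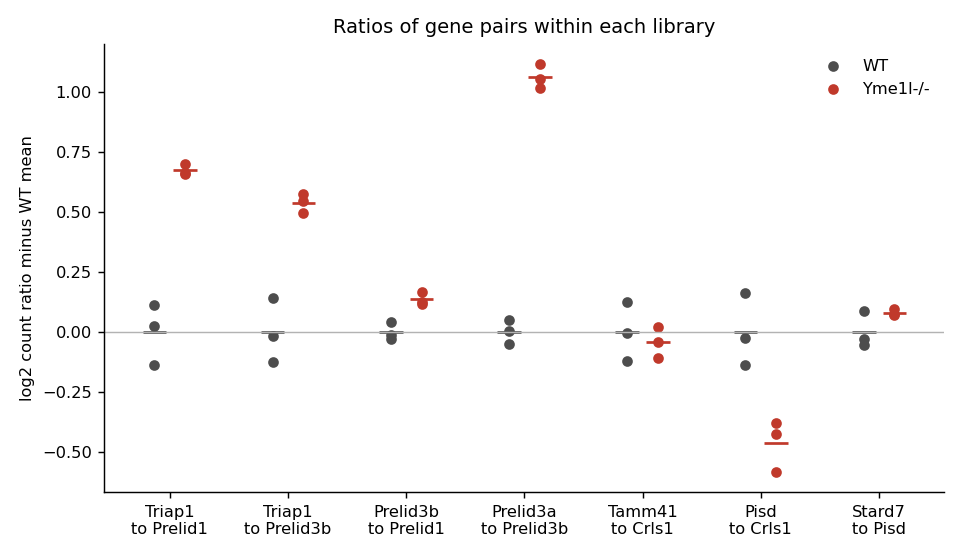
Log2 ratio of fragment counts of gene pairs within each library, minus the WT mean of that pair, for WT (grey) and Yme1l-/- (red) libraries; short lines are means of 3 libraries. Triap1 to Prelid1 (0.67), Triap1 to Prelid3b (0.54) and Prelid3a to Prelid3b (1.06) lie well above WT, Pisd to Crls1 lies below it (-0.46), and Tamm41 to Crls1 overlaps it.

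The transcripts for the first, the second and the last enzyme of cardiolipin synthesis were all higher in Yme1l-/- cells: Tamm41 by 1.34-fold, Pgs1 by 1.19-fold and Crls1 by 1.38-fold. Tamm41 and Pgs1 lie on chromosomes whose loci were higher as a whole in these cells, whereas Crls1 does not.

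Crls1 (ENSMUSG00000027357, chromosome 2, 132846666 to 132866785, plus strand), the cardiolipin synthase gene, stood at 21.4, 20.8 and 18.9 CPM in WT and at 30.1, 27.7 and 26.7 CPM in Yme1l-/- cultures. All Yme1l-/- cultures lay clear of WT. For Crls1 the log2 fold change was 0.47 ± 0.07 (95% interval 0.31 to 0.62, edgeR adjusted p = 0.000113). Chromosome 2 had a median of -0.02, and 81.5% of its loci lay below Crls1. Mcm8, a helicase gene that ends 2468 bases before Crls1 on the same strand, had a log2 fold change of 0.30 ± 0.06 (edgeR adjusted p = 0.000626).

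Tamm41 (ENSMUSG00000030316, chromosome 6, 115004381 to 115037876, minus strand), which encodes the mitochondrial CDP-diacylglycerol synthase, had 28.0, 29.6 and 29.3 CPM in WT and 39.7, 38.3 and 38.6 CPM in Yme1l-/- cultures. The cultures of a genotype were tightly grouped and far apart from the other genotype. Tamm41 thus had a log2 fold change of 0.42 ± 0.05 (95% interval 0.31 to 0.54, edgeR adjusted p = 1.9e-05). The median of all tested loci on chromosome 6 was 0.34, however, and 54.9% of them lay below Tamm41. With the median of each chromosome removed from the Yme1l-/- libraries, the value for Tamm41 was 0.082 and the call was lost (edgeR adjusted p = 0.182, against 1.5e-09 at the lowest over the alternatives).

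Pgs1 (ENSMUSG00000017715, chromosome 11, 117986292 to 118024011, plus strand), the gene for phosphatidylglycerophosphate synthase, had 88.5, 83.6 and 80.5 CPM in WT and 103, 99.3 and 98.2 CPM in Yme1l-/- cultures. Here too the genotypes did not overlap. The log2 fold change was 0.25 ± 0.05 (95% interval 0.14 to 0.36, edgeR adjusted p = 0.000884), below the median of 0.36 on chromosome 11, where 40.3% of loci lay below Pgs1. With chromosome medians removed the value turned to -0.11 and was not called (edgeR adjusted p = 0.0729, against 6.79e-05 at the lowest over the alternatives). Since each genotype comes from single clones, a shift of a whole chromosome and an effect of the genotype cannot be told apart. Under the same removal Prelid1 (-0.35), Prelid3a (1.14), Triap1 (0.38) and Crls1 (0.49) kept their calls, Prelid3b was at -0.11 (edgeR adjusted p = 0.0438), and the counts were 3 genes higher and 2 lower.

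**Figure D3:**
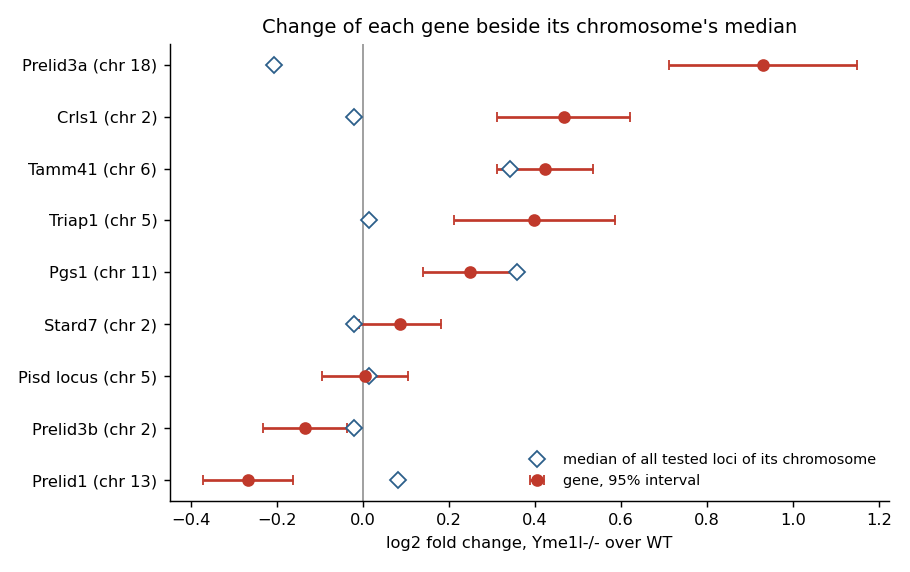
Log2 fold change of each tested gene, Yme1l-/- over WT (red points, bars are 95% intervals of the edgeR fit), beside the median of all tested loci on the same chromosome (open blue diamonds). Prelid3a, Crls1, Triap1 and Prelid1 lie away from their chromosome's median. The interval of Tamm41 (0.42 against 0.34) takes in its median, and that of Pgs1 (0.25 against 0.36) ends just below its median.

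The ratio of Tamm41 to Crls1, the first and the last step, showed no clear difference: the log2 ratio was 0.51 ± 0.12 in WT and 0.47 ± 0.07 in Yme1l-/- libraries (mean ± SD, n = 3), which overlapped (exact permutation p = 0.7). The difference was -0.04 and turned to 0.017 without WT replicate 3. On the authors' FPKM scale Tamm41 stood at 2.40 times Crls1 in WT and 2.33 times in Yme1l-/- cells, and Pgs1 at 2.82 and 2.33 times. Crls1 was the lowest of these 3 transcripts in both genotypes.

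Ptpmt1 (ENSMUSG00000063235, chromosome 2, 90908716 to 90918258, minus strand), the gene for the phosphatase of the pathway, was listed at 0 in all 6 libraries. Kbtbd4, which overlaps it, was also listed at 0, and Ndufs3, a subunit gene of respiratory complex I that every cell with respiring mitochondria needs, had at most 2 fragments in any library. The zeros of this stretch of chromosome 2 therefore cannot be read as expression levels, and no level of Ptpmt1 is given. The ratios of Pgs1 and Crls1 to Ptpmt1 were planned and could not be computed.

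Pisd and Stard7, which supply phosphatidylethanolamine and phosphatidylcholine to the inner membrane, were the genes without a call. Pisd (ENSMUSG00000023452, chromosome 5, 32736301 to 32785646, minus strand) was merged by the authors with Gm20671 and Prr14l into 1 locus, whose counts cannot be divided among the genes. The merged locus was counted in 4505, 4691 and 4839 fragments in WT and in 4919, 7288 and 7326 in Yme1l-/- libraries, or 142 ± 6.09 and 143 ± 2.11 CPM (mean ± SD, n = 3). The genotypes overlapped. Its log2 fold change was 0.00 ± 0.05 (edgeR adjusted p = 0.934), and the 95% interval ran from 93.6% to 108% of WT, and a change of Pisd offset by the merged genes would not be seen. The log2 ratio of the merged locus to Crls1 differed by -0.46 with no overlap (exact permutation p = 0.1, adjusted 0.14).

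Stard7 (ENSMUSG00000027367, chromosome 2, 127270218 to 127298932, plus strand) had 108, 103 and 108 CPM in WT and 112, 113 and 113 CPM in Yme1l-/- cultures. Every Yme1l-/- culture was above every WT culture, by a margin close to the WT spread. The log2 fold change was 0.09 ± 0.04 (95% interval -0.01 to 0.18, or 99.3% to 113% of WT), and the test did not call it (edgeR adjusted p = 0.103). With upper-quartile scaling it was called (0.14, edgeR adjusted p = 0.0114, against 0.29 at the highest over the alternatives). The log2 ratio of Stard7 to the Pisd locus differed by 0.08 and overlapped (exact permutation p = 0.3, adjusted 0.35). Parl, which encodes the protease that cleaves STARD7, was called higher (0.23 ± 0.05 on the log2 scale), at 38.3 ± 1.34 CPM in WT and 44.8 ± 1.23 CPM in Yme1l-/- cells (edgeR adjusted p = 0.00178).

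Pisd has pseudogene copies, whose fragments may be shared with it if multiply mapped fragments were counted, which is not stated. Pisd-ps1 and Pisd-ps2 had 21 to 66 fragments in the WT libraries and 63 to 132 in the Yme1l-/- libraries. Pisd-ps2 had a log2 fold change of 1.04 ± 0.22 (edgeR adjusted p = 0.0015). Pisd-ps1 had one of 0.49 ± 0.18 (edgeR adjusted p = 0.027), a call that was lost without WT replicate 1 (0.35, adjusted p = 0.102), without Yme1l-/- replicate 2 (0.44, adjusted p = 0.096), without Yme1l-/- replicate 3 (0.49, adjusted p = 0.0667), with DESeq2 (adjusted p = 0.0588) and with the medians of the chromosomes removed (0.14, adjusted p = 0.518). Both copies together were counted in far fewer fragments than the merged Pisd locus, and Pisd-ps3 is not analysed here.

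The genes around these pathways moved in both directions. Of 14 genes for cardiolipin precursors, remodelling and turnover 11 were tested, with 6 higher, 2 lower and 3 not called and a median log2 fold change of 0.17. The share called was 72.7%, beside 67.7% of all tested loci (33.6% higher and 34.1% lower). Gpam, which encodes the mitochondrial acyltransferase at the start of glycerolipid synthesis, rose from 17.0 ± 0.347 to 36.1 ± 1.10 CPM, a log2 fold change of 1.09 ± 0.06 (edgeR adjusted p = 2.09e-08). It was the only gene of this list with a change of at least 1 in either direction. Agk, whose product phosphorylates diacylglycerol to phosphatidic acid, was at 0.79 ± 0.07 and Agpat5, a gene for the acylation of lysophosphatidic acid, at -0.53 ± 0.05, both called. Both kept their calls in every alternative, Agk at 0.45 to 0.85 and Agpat5 at -0.56 to -0.21. Among the genes for remodelling, Hadha was called at 0.28 ± 0.04 and Taz, the tafazzin gene, at 0.17 ± 0.06 (edgeR adjusted p = 0.0277), while Lclat1 (0.09 ± 0.05) and Hadhb (-0.03 ± 0.06) were not. Lclat1 was called with upper-quartile scaling (0.15, edgeR adjusted p = 0.0144) and without Yme1l-/- replicate 1 (0.11, edgeR adjusted p = 0.0495). The call of Taz was lost without WT replicate 1 (0.15, adjusted p = 0.0814), WT replicate 2 (0.14, adjusted p = 0.108), Yme1l-/- replicate 2 (0.18, adjusted p = 0.0705) or Yme1l-/- replicate 3 (0.16, adjusted p = 0.0903) in edgeR and with DESeq2 (adjusted p = 0.0531). Its log2 fold change ranged from 0.14 to 0.38 over all alternatives. Of the phospholipases, Pla2g6 was higher (0.71 ± 0.07) on chromosome 15, whose median was 0.59, with the call lost once that was removed (0.11, edgeR adjusted p = 0.181), and Pnpla8 was lower (-0.77 ± 0.06) on chromosome 12, whose median was -0.44. Cds2, the gene for the CDP-diacylglycerol synthase of the endoplasmic reticulum, was not called (-0.10 ± 0.05, edgeR adjusted p = 0.122), except without WT replicate 2 (-0.15, edgeR adjusted p = 0.0273). Cds1, Pld6 and Gpat2 had too few counts for the test.

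Of the 13 genes for synthesis of phosphatidylserine, phosphatidylethanolamine and phosphatidylcholine, 8 were higher, 2 lower and 3 not called, with a median log2 fold change of 0.31. The share called was 76.9%, beside 67.7% of all tested loci (33.6% higher and 34.1% lower). The phosphatidylserine synthase genes, upstream of the substrate that PRELID3B carries to PISD, changed little: Ptdss1 was not called (-0.02 ± 0.05) and Ptdss2 was called at 0.18 ± 0.05. Pcyt1b, a gene for the enzyme that activates phosphocholine, was at 1.70 ± 0.15 (2.98 ± 0.583 to 9.69 ± 1.27 CPM), Chpt1, the gene for cholinephosphotransferase, at 1.11 ± 0.08 (24.2 ± 2.64 to 52.1 ± 4.01 CPM), and Pemt, which methylates phosphatidylethanolamine, at 0.75 ± 0.10. Pemt lies on chromosome 11, whose median was 0.36, and ranged from 0.39 to 0.81 over the alternatives, always called. Chka (0.42 ± 0.05), Pcyt1a (0.32 ± 0.04), the phosphatidylethanolamine gene Pcyt2 (0.31 ± 0.06) and Chkb (0.44 ± 0.06), which was merged with Cpt1b into 1 locus, were also called higher. Selenoi, a gene of phosphatidylethanolamine synthesis, was lower (-0.45 ± 0.05), and so was Cept1 (-0.33 ± 0.09), whose enzyme makes both phosphatidylethanolamine and phosphatidylcholine. With chromosome medians removed the calls of Pcyt2 (-0.049, edgeR adjusted p = 0.522), Chkb (-0.15, edgeR adjusted p = 0.0507) and Cept1 (-0.20, edgeR adjusted p = 0.0602) were lost, Etnk1, an ethanolamine kinase gene, was called lower (-0.25, edgeR adjusted p = 0.0042, against 0.09 ± 0.06 and no call before), and 6 genes of the list were higher and 2 lower. Without Yme1l-/- replicate 1 Etnk1 was called the other way (0.16, edgeR adjusted p = 0.00483), so it has no stable direction.

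Other lipid transfer proteins at mitochondria and their contact sites were split, with 4 of 16 genes higher, 6 lower and 6 not called and a median log2 fold change of -0.04. The share called was 62.5%, beside 67.7% of all tested loci. Miga1, which encodes a mitochondrial outer membrane protein that promotes fusion, had 310, 393 and 368 fragments in WT and 3, 3 and 5 in Yme1l-/- libraries. It passed the filter on low counts only through the WT libraries, where it is high, and could not be fitted with at least 10 counts asked of every library, so its fitted log2 fold change (-7.02 ± 0.21) is a description that rests on 3 to 5 fragments in the Yme1l-/- libraries. Miga2 was not called (0.04 ± 0.05). Nme4, a mitochondrial nucleoside diphosphate kinase that can also bind cardiolipin, was at 1.56 ± 0.09 and Stard10, a START domain carrier related to Stard7, at 1.35 ± 0.08. Prelid2, the remaining PRELI-like gene, had 27 to 46 fragments in WT and 39 to 66 in Yme1l-/- libraries and was not called (0.12 ± 0.23, edgeR adjusted p = 0.671). Of the tethers and carriers of the endoplasmic reticulum, Osbpl8 was higher (0.71 ± 0.08) and Osbpl5 (-0.72 ± 0.05), Pdzd8 (-0.37 ± 0.04), Vapa (-0.24 ± 0.06) and Vapb (-0.23 ± 0.05) were lower. Osbpl8 ranged from 0.41 to 0.80 and Vapa from -0.41 to -0.18 over the alternatives, and both kept their calls. Stard3, a cholesterol carrier gene, was called at 0.39 ± 0.06 and lost its call with chromosome medians removed (0.030, edgeR adjusted p = 0.667). Vps13d, a gene for a bridge-like lipid carrier, was called lower at -0.27 ± 0.10 (edgeR adjusted p = 0.0366), a call lost without WT replicate 2 (-0.30, adjusted p = 0.0507), WT replicate 3 (-0.18, adjusted p = 0.121) or Yme1l-/- replicate 1 (-0.17, adjusted p = 0.0727) and in 3 further alternatives (adjusted p = 0.0695 to 0.165). None of the lists was tested as a set, and the share called in each is to be read against the 67.7% of all loci.

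**Figure D4:**
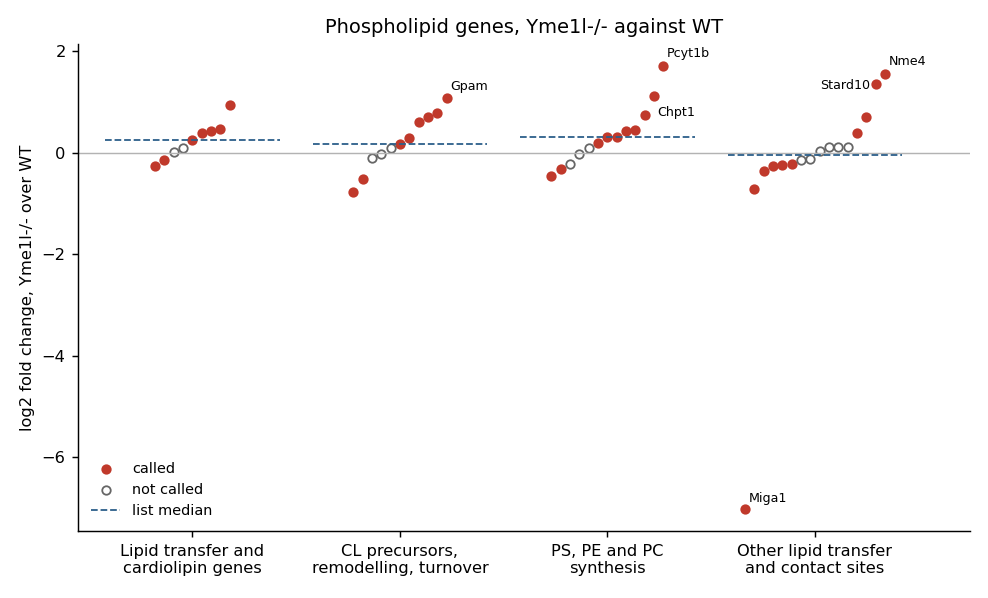
Log2 fold change (Yme1l-/- over WT) of every tested gene of 4 gene lists, ordered within each list; filled points were called by edgeR (adjusted p under 0.05), open points were not, and dashed lines are list medians (0.25, 0.17, 0.31 and -0.04 from left to right). Changes run in both directions in each list, and Miga1 (-7.02, fitted from 3 to 5 fragments in the Yme1l-/- libraries) lies far below all others.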

How the data were processed

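Poly(A)-selected stranded libraries were sequenced with paired 100-nucleotide reads. The submitters' processing notes name HISAT2 2.0.4, StringTie 1.3.3, Cuffdiff 2.2.1 and the build GRCm38. The deposited count table holds raw fragment counts per assembled locus, not normalized; in 635 of 51499 loci the authors merged genes under joined names, though other overlapping genes kept loci of their own. The tool that counted fragments, its strand setting and its handling of multiply mapped fragments are not given in the sources used here. The authors' second table holds 1 combined FPKM value per genotype, used only for levels between genes, and the fold changes, p-values and q-values of their own test, which were not used.

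Groups came from the genotype labels. Loci were kept with filterByExpr (minimum count 10), scaled with TMM factors (0.973 to 1.04) and compared in R 4.3.3 with edgeR 4.0.16 (glmQLFit robust, glmQLFTest, two-sided, no covariates, adjusted over 13867 loci). The biological coefficient of variation was 8.47%. Within-library ratios used counts plus 0.5, and matching was by symbol (positions from GENCODE M21). Scripts were tested on simulated data. DESeq2 1.42.0, other scalings and filters, a replicate block, removal of chromosome medians and leaving out each culture were the alternatives. The lipid genes, further lists and tests were chosen with earlier results of these data known. Named in the text are the 10 genes, Yme1l1, the called genes of the other and the marker lists with an absolute log2 fold change of at least 1, and genes of lists of 3 or fewer; other list genes and neighbours were chosen after their values were seen.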

Additional observations from a re-analysis of the deposited data

How the results depend on the processing

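Of the alternatives, removal of the chromosome medians changed the results for the 9 lipid genes the most. With it 3 genes were higher in place of 5, the median log2 fold change of the 9 genes was 0.082, Tamm41 was at 0.082 and not called, Pgs1 turned to -0.11, and the Pisd locus to -0.0096. With upper-quartile scaling 1 gene was lower in place of 2, the median was 0.31, Prelid3b was at -0.074 and not called, and Stard7 was called at 0.14. When loci were filtered only for a total of at least 1 count, the Pisd locus was at -0.00112. When each culture was left out in turn, the median ranged from 0.21 to 0.28, 1 to 2 genes were called lower and 5 higher, Prelid3b ranged from -0.15 to -0.12 and lost its call without WT replicate 1, Yme1l-/- replicate 2 or Yme1l-/- replicate 3, the Pisd locus ranged from -0.030 to 0.032, and the log2 ratio of Tamm41 to Crls1 from -0.10 to 0.017. The cause of these changes was not tested, beyond what the construction of each alternative sets. Prelid1, Prelid3a, Triap1 and Crls1 kept direction and call in all 13 alternatives. The number of loci called was 8513 to 10051 over all alternatives.

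No source says that replicate numbers pair the cultures. Deviations from the genotype means correlated at 0.14, -0.09 and 0.05 for numbers 1 to 3. Correlations between unlike numbers were not computed, so pairing is not settled. With the replicate block 9794 loci were called, 5 lipid genes were higher and 2 lower, and their median was 0.25. Of the genes named, the fibroblast marker Col3a1 lost its call with the block (-2.23, edgeR adjusted p = 0.0799). In the ratio test on same-numbered cultures the smallest p that 3 pairs can give is 0.25. Low counts limit genes such as Prelid2 and the Pisd pseudogenes; intervals cover the spread between cultures, and how far that includes differences between clones is not known.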
